A study of Rattus norvegicus with 11 samples.

Results

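The olfactory receptor genes named Olr1 to Olr300 were examined in the medial prefrontal cortex of the rat. They were taken from whole-genome expression arrays by name, as the non-control probes whose gene name was Olr followed by a number up to 300. The array carried 207 such probes for 206 genes, of 41012 non-control probes with 35581 gene names in all, and only Olr196 had a pair of probes. All but 7 of the probes carried a name marked as predicted.

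Olfactory receptors are G-protein-coupled receptors that detect odorants. In the nose each olfactory sensory neuron expresses a single receptor gene, and the receptor acts through the G protein Golf (Gnal), adenylyl cyclase 3 (Adcy3) and a cyclic-nucleotide-gated channel. Transcripts of some receptors have been described outside the nose, the brain included, usually at low levels, and most of the family is silent in any one tissue.

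Male rats of 4 months had self-administered heroin or had received saline infusions yoked to a heroin rat, in daily sessions on 14 days. All rats then went through 14 days of enforced abstinence and an extinction session without drug, after which the tissue was taken. The yoked saline rats thus shared the chamber, the abstinence and the extinction session with the heroin rats, and the comparison asks which transcripts differ after a history of heroin self-administration. The paper reports more goal-directed responses of the heroin rats in that session, and the comparison cannot separate this behaviour from the drug history. The cortex medial to the forceps minor was dissected, from 4.2 to 2.2 mm anterior of Bregma per the labels, and 500 ng of its RNA was labelled with Cy3 for a single-colour Agilent array, 1 array for each of 6 heroin and 5 yoked saline rats. The tissue block holds neurons, glia and blood vessels together, so fewer cells that express a gene and less RNA per cell cannot be told apart. Markers of the labelled cortex were present. All 3 cortical excitatory neuron markers on the array (Slc17a7, Camk2a and Nrgn) were detected on all 11 arrays, as were all 4 glial markers. Of the 5 olfactory sensory neuron markers on the array, Cnga2 and Stoml3 were detected on no array, Omp on 3, Rtp1 on 8 and Ebf2 on all 11. The summed signal of those 5 markers was 1.03 to 1.49 array medians in the heroin rats and 1.16 to 1.72 in the saline rats. All 3 olfactory bulb markers on the array (Doc2g, Th and Cdhr1) were also detected on all 11 arrays. Their summed signal was 18.4 to 27.5 array medians in the heroin rats and 15.3 to 20.8 in the saline rats. Most of it came from the probe of Cdhr1, with means of 21.4 in the heroin and 17.2 in the saline rats. The means were 1.43 and 1.41 for Doc2g and 0.733 and 0.718 for Th. Whether the block held tissue of the olfactory bulb was not tested.

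Heroin and saline arrays of the same replicate number carried the same scan time in the file headers and are called a slide here. On each slide the heroin array had position 4 and the saline array position 3, so array position and group cannot be told apart. The array of heroin replicate 1 had no saline partner. The median signal of an array was between 42.7 and 83.2 intensity units, and it was lowest in heroin replicate 6 and highest in saline replicate 6, which shared a slide.

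Each probe was a 60-base oligonucleotide, and all 207 lay on chromosome 1 of the rat build rn3. They formed 6 clusters separated by more than 1 Mb. The cluster at chr1:160152312-166659465 held 172 of the probes, from Olr39 to Olr285. RefSeq transcripts of the GRCr8 annotation matched 205 of the 207 probes by accession, and none of the matched genes is listed there as a pseudogene. By their current names 115 probes belonged to class I, the receptor families first described in fish, and 86 to class II, the larger group in land vertebrates, while 6 could not be assigned. All 115 class I probes lay in the cluster of 172, of which 91 were detected on no array and 18 on every array. In the next largest, 16 probes at chr1:141231244-143001569, 8 were detected on no array and 0 on every array. Which part of a transcript each probe covers was not analysed here.

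Neighbouring receptor genes can be nearly alike, so a signal need not belong to 1 gene alone. The probes were compared with each other only and not with transcripts, so the comparison cannot show that a probe measures 1 gene. Of all pairs that include at least 1 of the 207 probes, 5 shared an unbroken run of 20 bases or more, and both probes of each of these pairs were members. The shared run is in capitals in the following sequences, printed 5′ to 3′, which are shown because these pairs differed most in how often their probes were detected. Olr180 lay at chr1:162835019-162835078 and Olr184 at chr1:162889263-162889322, both on the minus strand. Olr211 lay at chr1:164082978-164083037 and Olr213 at chr1:164122596-164122655, also on the minus strand.
Olr180: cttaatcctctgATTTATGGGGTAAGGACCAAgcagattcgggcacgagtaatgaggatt
Olr184: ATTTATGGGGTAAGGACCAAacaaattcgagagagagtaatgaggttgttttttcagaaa
Olr211: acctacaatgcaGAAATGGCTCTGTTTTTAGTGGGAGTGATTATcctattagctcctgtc
Olr213: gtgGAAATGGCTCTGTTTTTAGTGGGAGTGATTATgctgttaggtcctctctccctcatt

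Olr184, with a shared run of 20 bases, was detected on 11 arrays and Olr180 on 1. Olr213, with a shared run of 32 bases, was detected on 11 arrays and Olr211 on 1. A probe counted as detected where the scanner software scored it well above background. The probes of Olr232 and Olr233 shared 29 bases and were detected on 11 and 6 arrays, those of Olr278 and Olr279 shared 31 bases and were detected on 11 and 5 arrays, and those of Olr204 and Olr206 shared 28 bases and were detected on none.

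Some probes covered a stretch that is conserved across the receptor family. The motif AANCCNNTNATNTA, which covers the codons of NPxIY of the seventh transmembrane segment with x as F, I, L, M or V but also admits M in place of I, as in the probe of Olr222, was searched on both strands of every probe. It was found in 8 of the 207 probes (3.86%), each time on the strand of the probe, against 45 of all 41012 probes (0.11%) and 1.77% of the probes for Olr numbers over 300. Of the 8, 3 were detected on no array and 1, Olr183, on all arrays. The probe of Olr226, the rat I7 receptor with the current name Or6a2 and a known octanal receptor, was among the 3 and is shown with the motif in capitals.
Olr226: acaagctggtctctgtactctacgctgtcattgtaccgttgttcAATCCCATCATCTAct

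Most receptor probes were at or near background in this tissue. Of the 207 probes, 105 (50.7%) were detected on no array, 79 (38.2%) on 1 to 10 arrays and 23 (11.1%) on all 11. Over all non-control probes 12.4% were detected on no array and 62.4% on all 11. Of the 79 probes detected on some arrays, 30 were detected on a single array. These single detections were unevenly spread, with 9 on saline replicate 6, 7 on heroin replicate 5 and 5 on saline replicate 5, and at most 2 on any other array.

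**Figure D1:**
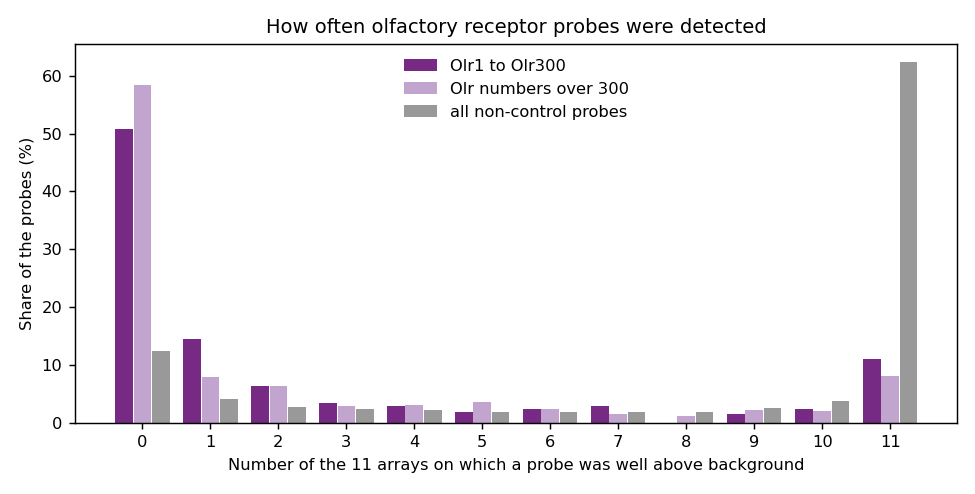
Number of the 11 arrays on which a probe was well above background (horizontal axis), as a share of the probes (vertical axis, percent), for the 207 Olr probes, the probes of Olr numbers over 300 and all 41012 non-control probes. The Olr bars are highest at 0 arrays (50.7%), while the bars of all probes are highest at 11 arrays (62.4%).

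The signals of undetected probes carried little information on the level of a transcript. Feature Extraction had replaced the signal of 55 to 101 Olr probes per array by a surrogate value, because the spot could not be told from its local background, and 29 probes had surrogates on all arrays. At the same time 48.3% to 71.0% of the Olr probes on an array lay above the 95th percentile of the negative control spots of that array. The median background-subtracted signal of the Olr probes was between 3.38 and 13.6 intensity units per array, against medians between -7.66 and -4.26 for the negative controls. The median receptor probe thus lay above the median of the negative controls on every array. It lay below the lowest signals called well above background, which were 13.3 to 20.8 units per array. No Olr spot was saturated or marked as an outlier by the software.

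The other olfactory receptors on the array, with Olr numbers over 300, were detected about as rarely. Of their 905 probes 58.5% were detected on no array and 8.18% on all 11. None of the 9 probes for V1r vomeronasal receptors and none of the 10 for Tas2r bitter taste receptors was detected on all arrays, while 1 of the 14 for trace amine-associated receptors was. The 2 classes of olfactory receptor were close to each other. Of the class I probes 52.2% were detected on no array and 8.70% on all, against 51.2% and 14.0% of the class II probes. None of these differences between families was tested.

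Detection moved with the base composition of the probe. GC content averaged 40.3% ± 3.77 (SD) over the 105 probes detected on no array, 41.7% ± 4.20 over the 79 detected on some and 44.7% ± 6.49 over the 23 detected on all. Of the 13 probes with at least 50% GC, 11 were detected at least once and 6 on all arrays, against 91 and 17 of the 194 other probes. The rank correlation of GC content with mean signal was 0.32 over the 207 probes, which share the same 11 arrays, and its part in the detection of single receptors was not tested.

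Fewer receptor probes were detected in the heroin rats on average, with overlap between the groups. The Olr probes detected per array numbered 35, 33, 41, 42, 68 and 34 in heroin replicates 1 to 6 and 51, 42, 44, 62 and 71 in saline replicates 2 to 6. The mean share was 20.4% ± 6.38 (SD, n = 6) in the heroin rats and 26.1% ± 5.95 (SD, n = 5) in the saline rats. The highest heroin array, replicate 5, stood above 4 of the 5 saline arrays, while the other 5 heroin arrays lay at or below the lowest saline array. Over all non-control probes the shares were 72.7% ± 4.50 and 77.1% ± 3.34, so the share over all probes was also lower on average in the heroin rats.

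Within slides the direction was the same on 4 of 5. The heroin array had 18, 1, 2 and 37 fewer Olr probes detected than the saline array on the slides of numbers 2, 3, 4 and 6, and 6 more on the slide of number 5. The mean difference within slides was -5.02 percentage points, against -5.72 over all arrays and -2.87 with both arrays of number 6 left out, which was chosen after the data were seen.

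The share of Olr probes detected followed the share of all probes detected on the same array. Over the 11 arrays Pearson's r was 0.88 (permutation p = 0.00052) and Spearman's rho 0.81 (permutation p = 0.00346), with Benjamini-Hochberg adjusted p of 0.00104 and 0.00692 over the 2 relations computed. Without heroin replicate 5 and saline replicate 6, the arrays farthest from the median, r was 0.69 over 9 arrays, and among the 6 heroin arrays r was 0.90 and rho 0.43 (exact permutation p = 0.106 for r). With the median signal of the array, r was 0.63 (permutation p = 0.0265) and rho 0.52 (permutation p = 0.103), and r fell to 0.38 without the 2 arrays farthest from the median. A slide held at most 2 arrays, too few for a relation within slides.

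**Figure D2:**
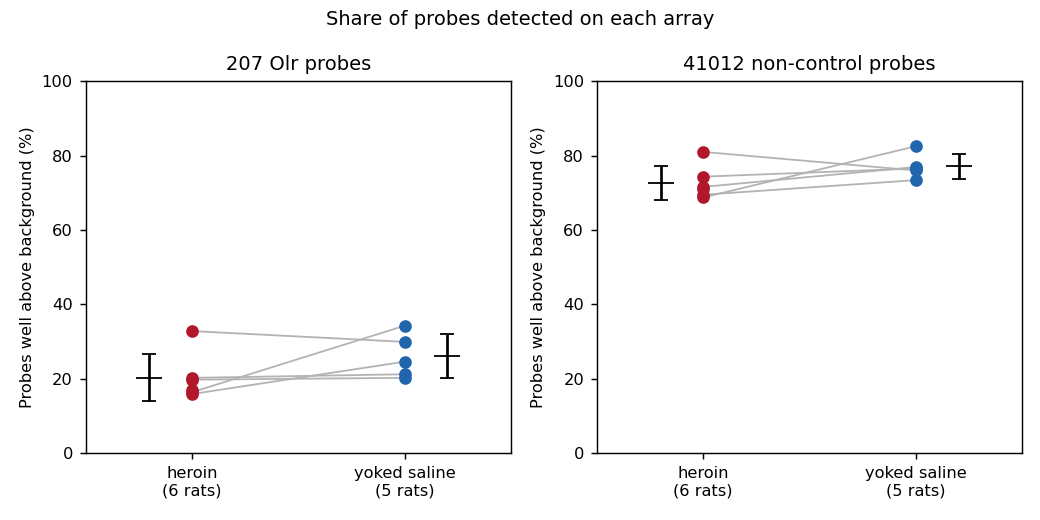
Share of probes well above background on each array (vertical axis, percent) in the heroin and yoked saline rats, for the 207 Olr probes (left) and all 41012 non-control probes (right). Points are arrays, grey lines join arrays of 1 slide, and black bars give the mean and SD of each group. Olr shares run from 15.9% to 34.3%, with heroin replicate 5 at 32.9% above the other heroin arrays.

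Single receptors did not separate the groups by detection. No probe was detected on all arrays of one group and on none of the other. Of the 79 probes detected on some arrays, 57 were detected on a larger share of the saline arrays and 22 on a larger share of the heroin arrays. Of the 8 probes detected on 9 or 10 arrays, Olr44, Olr94 and Olr164 were detected on all heroin arrays and on 4 saline arrays, and each had its lowest signal in saline replicate 2, at 0.260, 0.309 and 0.278 array medians. Of the 30 detected once, 20 were detected in a saline rat and 10 in a heroin rat. The splits of the 79 and of the 30 are given without the same counts over all probes. The share of all probes detected was likewise lower on average in the heroin rats, 72.7% against 77.1%, so the splits are not read as a trait of the receptors.

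The 23 receptors detected on all arrays gave the levels that could be compared between the groups. All levels are signals in units of the array median, after signals under 5 had been set to 5. Probes bind with different strength, so the signals of different receptors are not set against each other. The 23 include Olr59, the rat RA1c receptor, whose human counterpart OR51E2 responds to short-chain fatty acids and is known from prostate, kidney and the carotid body. The probe of Olr59 at chr1:160692173-160692232 is shown as one of the few receptors here with a role described outside the nose, with those of Olr300 at chr1:200578298-200578357 and Olr3 at chr1:65821829-65821888, all on the plus strand and with no part marked.
Olr59: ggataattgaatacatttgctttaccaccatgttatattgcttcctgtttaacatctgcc
Olr300: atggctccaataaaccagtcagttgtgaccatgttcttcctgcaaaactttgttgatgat
Olr3: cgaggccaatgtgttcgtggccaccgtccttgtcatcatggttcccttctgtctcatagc

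The signal of Olr59 was 0.761, 1.11 and 1.39 (lowest, median and highest) in the heroin rats and 1.16, 0.812, 1.82, 1.39 and 0.867 in the saline rats. The heroin values lay inside the saline range except for 1 rat, and the log2 difference was -0.09 ± 0.21 (SE; limma adjusted p = 0.797, exact permutation p = 0.719). Its neighbour Olr63 (Or51e1), whose human counterpart responds to medium-chain fatty acids, was detected on 2 of 6 heroin and 4 of 5 saline arrays, with signals of 0.258 to 0.498 and 0.243 to 0.667. Olr63 and Olr226 were chosen for their known ligands after their values were seen.

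Olr300 (Or12j4) varied most between rats of a group. Its signal was 20.7, 7.49, 20.4, 24.6, 22.9 and 3.41 in heroin replicates 1 to 6 and 4.38, 16.8, 24.0, 21.5 and 12.1 in saline replicates 2 to 6. Low rats occurred in both groups, heroin replicates 2 and 6 and saline replicate 2, and the groups overlapped over almost their whole range. The log2 difference between the groups was -0.01 ± 0.52 (SE; limma adjusted p = 0.994, exact permutation p = 0.996).

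No receptor among the 23 passed the test between the groups. The thresholds were those of the study, a minimum change of 1.4-fold and a limma p under 0.02 before adjustment, and 0 of 23 receptors passed them, against a background of 2.72% of the 25555 probes tested. At an unadjusted p under 0.05 there were also 0 of 23, against 18.5% of all probes tested, and 0 with the methods' t-test. The smallest limma p was 0.0642 and the smallest Benjamini-Hochberg adjusted p was 0.277. The groups overlapped for all 23, while 1.8% of all probes tested did not overlap. The log2 differences, heroin minus saline, ran from -0.49 to 0.38 with a median standard error of 0.21. Of the 23 probes 14 were higher and 9 lower in the heroin rats, with a median difference of 0.14, and 78.7% of all probes tested were higher, with a median of 0.18. The split turned with the scaling. With the 75th percentile 6 of the 23 were higher and 17 lower, with a median of -0.082 against -0.034 over all probes tested, and with the 50th percentile of the probes detected on all arrays 8 were higher and 15 lower, with medians of -0.055 and -0.0070.

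The largest differences among the 23 were in Olr60, Olr3 and Olr157 in one direction and Olr184, Olr282 and Olr86 in the other. Olr60 (Or51a25) had signals of 0.831, 0.923 and 1.80 (lowest, median and highest) in the heroin rats and of 0.641, 0.769, 0.852, 0.803 and 0.923 in the saline rats. The highest value, of heroin replicate 6, stood apart from the other heroin rats. The log2 difference was 0.38 ± 0.19 (SE; limma adjusted p = 0.279, exact permutation p = 0.0779), and it was above 0 on 5 of 5 slides. It was 0.22 without heroin replicate 6 and 0.16 with scaling to the 75th percentile. Olr3 (Or10am5) had signals of 2.49, 3.29 and 4.72 in the heroin rats and of 2.54, 2.23, 2.95, 3.58 and 2.12 in the saline rats, and 2 heroin rats lay above the saline range. Its log2 difference was 0.35 ± 0.18 (SE; limma adjusted p = 0.277, exact permutation p = 0.0844), but 0.18 after quantile normalization and 0.14 where arrays were scaled to the 75th percentile. The difference of Olr157 (Or52p1) was 0.28 ± 0.27 (SE), above 0 on 5 of 5 slides, but 0.17 to 0.50 when 1 rat was left out and 0.067 with the 75th percentile.

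Olr184 (Or52e8b) had signals of 0.684, 1.03 and 1.97 in the heroin rats and of 1.31, 1.97, 1.97, 1.39 and 0.993 in the saline rats. All heroin rats but replicate 4 lay below 4 of the 5 saline rats. The log2 difference was -0.49 ± 0.25 (SE; limma adjusted p = 0.279, exact permutation p = 0.121). It passed both thresholds without heroin replicate 4, at -0.67 (limma adjusted p = 0.342), and with scaling to the 75th percentile, at -0.71 (limma adjusted p = 0.439). The differences of Olr282 (Or10a3) and Olr86 (Or52e51) were -0.34 ± 0.24 and -0.25 ± 0.16 (SE). When 1 rat was left out they ran from -0.54 to -0.16 and from -0.34 to -0.15.

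**Figure D3:**
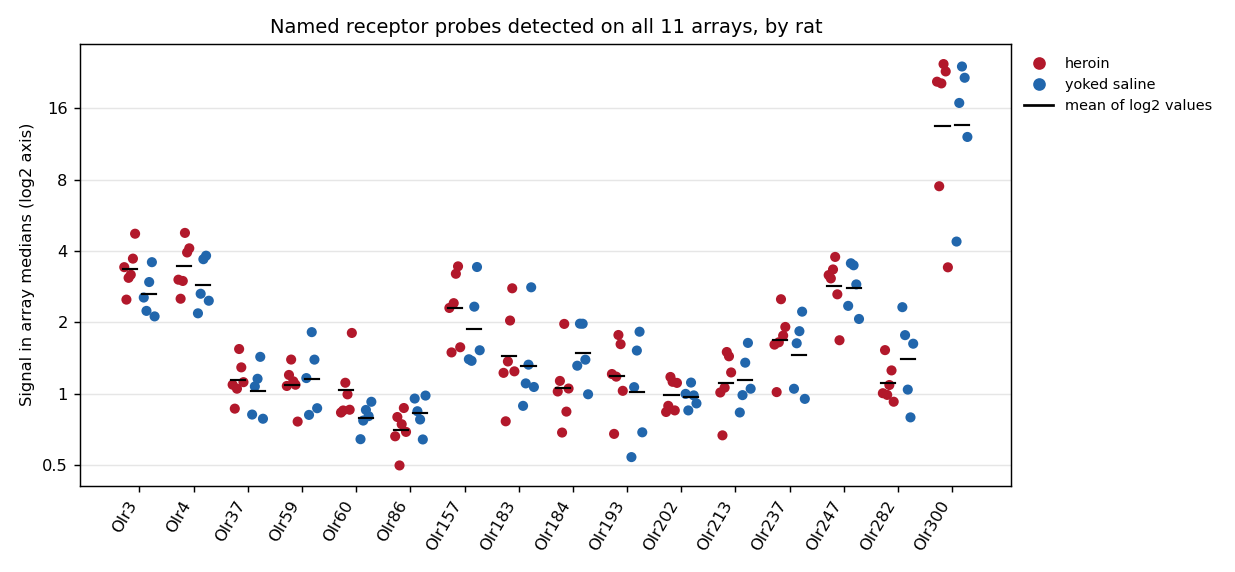
Signal in array medians (vertical axis, log2 scale) of 16 receptor probes detected on all 11 arrays (horizontal axis, by number), 1 point per rat, with black lines at the mean of the log2 values of each group. The points of both groups overlap for all 16 probes, and Olr300 spreads from 3.41 to 24.6.

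The other named receptors among the 23 were Olr4, Olr37, Olr183, Olr193, Olr202, Olr213, Olr237 and Olr247. Their log2 differences ran from -0.03 for Olr213 to 0.27 for Olr4, and the limma p from 0.191 to 0.904. Olr4 (Or6z1), a neighbour of Olr3, was higher in the heroin array on 5 of 5 slides, by 0.05 to 0.73, and its difference was 0.10 after quantile normalization. With scaling to the 75th percentile the differences of Olr37, Olr183, Olr202, Olr237 and Olr247 turned below 0, and that of Olr247 also after quantile normalization, at -0.14. The 7 unnamed ones, Olr46, Olr95, Olr197, Olr229, Olr232, Olr278 and Olr288, had log2 differences between -0.17 and 0.27.

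Without a filter on detection 5 receptors passed the study's thresholds, close to the share of all probes. They were 5 of 207 (2.42%), 1 higher and 4 lower in the heroin rats, against 3.81% of the 40980 probes tested (1.16% higher and 2.65% lower). The methods' t-test called the same 5, against 1.96% of all probes. The smallest adjusted p was 0.36, and no Olr probe had an adjusted p under 0.05. At an unadjusted p under 0.05 there were 15 (3 higher and 12 lower), 5 of them detected on no array, against 13.8% of all probes. The number past the thresholds was 9 without heroin replicate 2, 10 without heroin replicate 5 and 12 without saline replicate 5, while the share of all probes was then 4.67%, 5.10% and 9.66%.

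The 5 were Olr199, Olr205, Olr260 and Olr119, lower in the heroin rats, and Olr56, higher. Olr56, Olr119 and Olr260 are named because they passed, after their values were seen. Olr199 and Olr205 were picked by their difference in detection between these same groups. The permutation p-values and slide directions given for them describe that difference and are no independent test of it. The probes of the 3 with the smallest p are shown, at chr1:163117077-163117136 (plus strand), chr1:163969926-163969985 (minus strand) and chr1:165915375-165915434 (plus strand), with no part marked.
Olr199: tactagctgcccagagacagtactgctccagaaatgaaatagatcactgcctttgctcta
Olr205: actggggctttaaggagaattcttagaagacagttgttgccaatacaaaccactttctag
Olr260: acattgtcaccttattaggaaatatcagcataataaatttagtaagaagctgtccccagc

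Olr199 (Or56b6c, a class I receptor) was the only one of the 207 whose groups did not overlap, against 1.4% of all probes. It was detected on 5 of 5 saline arrays and on 1 of 6 heroin arrays. Its signal was 0.0826, 0.221 and 0.261 (lowest, median and highest) in the heroin rats and 0.381, 0.487, 0.375, 0.289 and 0.376 in the saline rats. The log2 difference was -1.05 ± 0.28 (SE; limma adjusted p = 0.36), with an exact permutation p of 0.00433, and it was below 0 on 5 of 5 slides. Since 5 of the 6 heroin values were not well above background, 1 of them a surrogate, the size of this difference rests on values near background. With the normexp background correction, which adds an offset of 50 units to each signal and so shrinks the differences of dim probes by construction, it was -0.28 and under the fold threshold.

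Olr205 (Or2ag19b, a class II receptor) was detected on 4 of 5 saline arrays and on no heroin array. Its signal was 0.0808, 0.162 and 0.279 in the heroin rats and 0.629, 0.422, 0.478, 0.186 and 0.682 in the saline rats, so that only saline replicate 5 fell into the heroin range. Since the heroin values were not well above background, the fold between the group means is given as a bound, 1.63-fold or more lower in the heroin rats. The bound sets the mean log2 signal of the saline rats against, for each heroin array, the lowest signal called well above background or the probe's own signal, whichever was higher. It allows for the background and not for the spread between rats, so it is no minimum for the true difference. The saline mean includes saline replicate 5, where the probe was not detected. The fitted log2 difference was -1.59 ± 0.39 (SE; limma adjusted p = 0.36), with an exact permutation p of 0.013, and -0.38 with normexp, again under the fold threshold.

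The other 3 lay almost wholly below the level called well above background, and no fold is given for them. Olr260 (Or5p1) was detected on 2 saline arrays and no heroin array, with signals of 0.0689 to 0.170 in the heroin rats and 0.127 to 0.463 in the saline rats. Olr119 (Or51b6b) was detected on no array, with signals of 0.0773 to 0.180 and 0.125 to 0.215, and with the slide as a block it no longer passed. Olr56 (Or51f23c) was detected on heroin replicate 5 alone, with signals of 0.100 to 0.383 in the heroin rats and 0.0733 to 0.139 in the saline rats. It did not pass with scaling to the 75th percentile, and neither Olr56, Olr119 nor Olr260 passed with normexp.

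Detection differed most between the groups for Olr205, Olr199, Olr39, Olr165 and Olr203 among the receptors not detected on all arrays. Ties were broken by the higher mean signal, and Olr63 and Olr154 had the same difference as Olr203. Olr165 (Or52n4e) was detected on 3 saline arrays and no heroin array. Olr39 (Or55b4) was detected on 2 of 6 heroin and 5 of 5 saline arrays, and Olr203 (Or2ag13) on 2 of 6 and 4 of 5. Heroin replicate 5, which had the most receptors detected among the heroin arrays, was the heroin array that detected Olr199 and 1 of the 2 that detected Olr39 and Olr203.

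**Figure D4:**
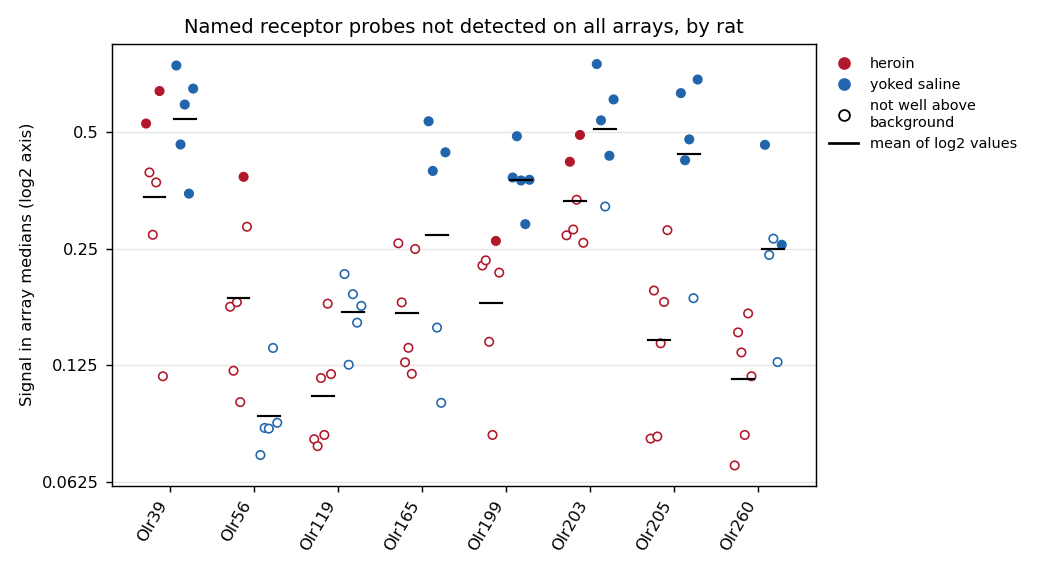
Signal in array medians (vertical axis, log2 scale) of the 8 named receptor probes not detected on all arrays (horizontal axis), 1 point per rat, filled where the probe was well above background and open where it was not, with black lines at the mean of the log2 values. Only Olr199 shows no overlap of the groups, and the heroin points of Olr205 and Olr260 are all open.

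The median of the receptors depended on the scaling between arrays. With each array divided by its 50th percentile over all probes, the median log2 difference of the 207 probes was 0.01, with 106 higher and 101 lower in the heroin rats, and the median over all probes was 0.10. With the 75th percentile the medians were -0.20 and -0.12, with 28 receptors higher and 179 lower, and 8 past the thresholds, all of them lower, against 5.36% of all probes (51 of 2195 higher). With the 50th percentile of the probes detected on all arrays the receptor median was -0.18. After quantile normalization it was 0.02, with 127 higher and 80 lower, and 8 were past the thresholds, 5 of them higher, against 2.77% of all probes (477 of 1134 higher). Without scaling it was -0.03, and with normexp -0.02, where the offset makes a 1.4-fold change hard to reach at these signals, 0 receptors passed with limma (0.32% of all probes did) and 6 had an unadjusted p under 0.05. The 29 probes with surrogates on all arrays had a median difference of 0.04, which is set by the floor and the array medians and not by a measured signal.

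**Figure D5:**
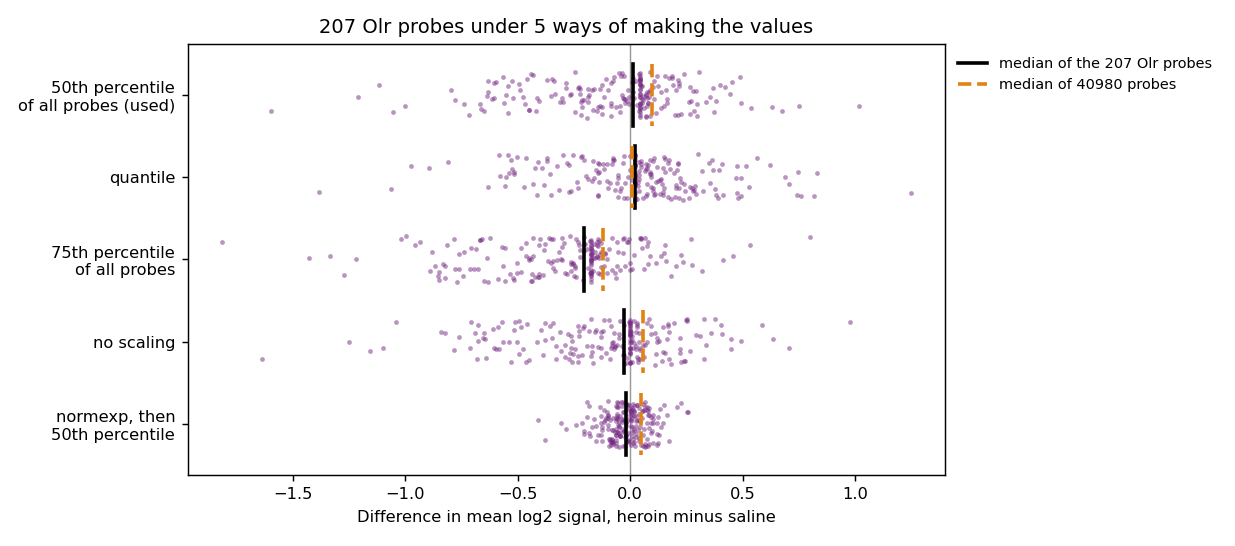
Difference in mean log2 signal, heroin minus saline (horizontal axis), of each of the 207 Olr probes under 5 ways of making the values (rows), with the Olr median in black and the median of all 40980 probes dashed. The receptor median lies at -0.20 with the 75th percentile and between -0.03 and 0.02 with the other 4, and normexp draws the points towards 0.

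A list of 23 genes related to olfactory signalling was measured. It holds genes of the odorant cascade and others, such as Omp, Lhx2, Ebf1 and Slc17a6. Of the 23 genes, 20 were on the array. Of these, 13 were detected on all arrays and 3 on none, and 0 of the 13 passed the thresholds in either direction with limma, against the background of 2.72% of the 25555 probes tested. Each gene is given by 1 probe, also where the array had more (3 for Gnal, 5 for Gnb1 and 2 each for Cngb1, Pde1c and Slc12a2). The further probes of these genes are not described here. Gnal, the G protein of the odorant cascade that striatum and cortex also express, had a signal of 4.08 ± 0.73 (SD, n = 6) array medians in the heroin rats and 3.55 ± 0.63 (SD, n = 5) in the saline rats, a log2 difference of 0.20 ± 0.17 (SE; limma adjusted p = 0.436, exact permutation p = 0.247), which was -0.0042 after quantile normalization and -0.021 with the 75th percentile. Adcy3, the adenylyl cyclase of the cascade and of neuronal cilia, had signals of 2.97 to 4.13 in the heroin rats and 2.17 to 3.08 in the saline rats. Its log2 difference was 0.39 ± 0.15 (SE; limma adjusted p = 0.263, exact permutation p = 0.0173), under the fold threshold, and 0.20 after quantile normalization. Cngb1, a subunit of the cyclic-nucleotide-gated channel, had signals of 0.735 to 1.41 in the heroin rats and 1.36 to 1.97 in the saline rats. Its log2 difference was -0.41 ± 0.19 (SE; limma adjusted p = 0.263, exact permutation p = 0.0325), and it was -0.45 after quantile normalization and -0.63 with the 75th percentile. Cnga4, a further subunit, was detected on 3 arrays, with a mean signal of 0.218 ± 0.081 (SD, n = 6) and 0.367 ± 0.123 (SD, n = 5), and no fold is given. The largest log2 difference among the 13 was that of Slc12a2, higher in the heroin rats by 0.53 ± 0.22 (SE, limma adjusted p = 0.263, exact permutation p = 0.0325). For Slc12a2 it was 0.40 after quantile normalization and 0.31 with the 75th percentile, both under the fold threshold. Gnb1 was higher by 0.29 ± 0.12 (SE, limma adjusted p = 0.263, exact permutation p = 0.00649), but by 0.023 after quantile normalization. Of the 13, Cngb1, Pde1c and Adrbk2 were lower in the heroin rats and the others higher, while 78.7% of the 25555 probes tested were higher. With the 75th percentile Gnal, Reep1, Pde4a, Lhx2, Ebf1 and Arrb2 turned below 0 as well, so the split is not read as a trait of these genes. Cngb1, Cnga4, Slc12a2 and Gnb1 are named after their values were seen. Omp, the marker protein of mature sensory neurons, was detected on 3 arrays, with a mean signal of 0.196 ± 0.124 (SD, n = 6) and 0.255 ± 0.132 (SD, n = 5).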

How the data were processed

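RNA of 11 rats was measured on 11 single-colour arrays, 6 heroin and 5 yoked saline, grouped by the sample titles. The authors deposited per array a background-subtracted signal intensity for each spot, from Feature Extraction 9.5.1.1 per the file headers, together with detection, surrogate and outlier flags and with no scaling between arrays. Probe sequences and rn3 coordinates are those of the array files. A further table that the authors deposited holds a relative value (ratio) for 23670 probes, of which 22 were Olr probes, all among the 23 detected on all arrays. It was used as an alternative.

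Following the study's methods, intensities under 5 were raised to 5 and divided by the array's 50th percentile over non-control probes before log2 was taken. Detection on an array required the well-above-background flag on at least 0.5 of a probe's spots. Groups were compared two-sided with limma 3.58.1 (lmFit, eBayes; R 4.3.3) over all probes, once over those detected on all arrays and once over all, with a usable spot on at least 2 arrays per group, and Benjamini-Hochberg adjustment over each whole table. For named probes an exact permutation test divided the rats in every possible way, with 0.00216 as its smallest p. A fold bound and the correlations over arrays were computed with SciPy 1.17.1 and pandas 2.3.3. The fit was tested on simulated data. The p-values measure the spread between arrays, 1 per rat, which holds differences between rats, arrays and slides together. The main fit and the permutation test take no account of the slide, and the number of arrays limits the precision.

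Members, gene lists and tests were chosen with earlier results of these data known. The named receptors are up to 15 detected on all arrays with the highest mean signal, the 3 highest and 3 lowest differences among those tested, and the 5 others with the largest difference in detection, 21 in all. The list of genes related to olfactory signalling names Gnal, Adcy3 and Omp. In this and the marker lists, a gene with several probes is given by 1 of them. Of the other marker lists, 3 of 4 olfactory bulb and 2 of 3 blood markers were on the array, all detected on all arrays, and none passed the thresholds. V2r receptors had 0 probes. Alternatives were other scalings, floors and background corrections (normexp with an offset of 50), the authors' ratios, outlier spots kept, the methods' t-test, limma's trend, robust and array weight options, the slide or replicate number as a block, other detection rules and leaving out each rat. Exons, transcript ends and protein sequences were not analysed here.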

Additional observations from a re-analysis of the deposited data

Results flagged for a closer look

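Among the 54 groups of arrays tested for 1 sample far from the others by Dixon's gap over range, 5 had such a sample (9.3%), and chance flags about 1 in 20. The share of Olr probes detected was 32.9% on heroin replicate 5, against 15.9% to 20.3% on the other heroin arrays. That array also had the largest share of all probes detected among the heroin arrays, 81.0%. The signal of Olr60 was 1.80 array medians in heroin replicate 6, the array with the lowest median signal. The signal of Olr183 was 2.81 in saline replicate 5, while heroin replicate 5 on the same slide had 2.78. The signal of Olr184 was 1.97 in heroin replicate 4, within the range of the saline rats. The signal of Olr56 was 0.139 in saline replicate 5, a value not well above background.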

How the results depend on the processing

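The difference in the share of Olr probes detected stayed below 0 under every alternative run, between -8.21 and -3.66 points when 1 rat was left out, at -5.02 with the replicate block and at -2.87 without number 6. The median difference of the 207 probes stayed within the spread between arrays but not on 1 side of 0 (-0.08 to 0.08 when 1 rat was left out, 0.03 with the replicate block, -0.15 without number 6). The 5 receptors past the thresholds without a filter became 8 with the 75th percentile, with quantile normalization and with a floor at 1, 17 with array weights (10.3% of all probes) and 0 with normexp, whose offset shrinks the differences of dim probes, ran from 4 to 12 when 1 rat was left out, and were 5 with the replicate block (2 higher and 3 lower). The 0 of 23 became 1 with the 75th percentile and with the 50th percentile of detected probes (Olr184 each time), 1 of 32 with detection in 1 group sufficing (Olr199, which entered only through the saline group where it is high), and 0 to 1 when 1 rat was left out (Olr184, without heroin replicate 4). Over 25252 probes detected on all arrays, same-numbered arrays deviated together with r of 0.38, -0.13, 0.35, 0.02 and -0.24, so the numbers were not taken to pair the rats. Whether single receptors followed the slide was not tested. Under the block, Olr119 alone of the 24 named receptors lost its call, Olr44, which is not among the 24, gained one (0.79 on the log2 scale) and Olr247 turned sign. Over all alternatives and the 24 named receptors, a call was lost 17 times, with normexp for all 5, and gained 10 times. The signs that turned belonged to differences between -0.09 and 0.22. With the 75th percentile they were -0.064 for Olr37, -0.082 for Olr183, -0.19 for Olr202, -0.013 for Olr237 and -0.19 for Olr247, and with the 50th percentile of detected probes -0.037 for Olr37, -0.055 for Olr183, -0.16 for Olr202 and -0.17 for Olr247. Quantile normalization gave -0.14 for Olr247, no scaling -0.013 for Olr202 and -0.018 for Olr247, and the replicate or slide block -0.0044 for Olr247. Array weights gave 0.11 for Olr59 and 0.28 for Olr300, normexp 0.0047 for Olr300, and leaving out both number 6 arrays -0.026 for Olr202 and 0.35 for Olr300. Leaving out 1 rat gave ranges of -0.21 to 0.077 for Olr59, -0.054 to 0.41 for Olr183, -0.0046 to 0.43 for Olr193, -0.020 to 0.081 for Olr202, -0.15 to 0.12 for Olr213, -0.085 to 0.18 for Olr247 and -0.42 to 0.39 for Olr300. The cause of these shifts was not tested. Signal over background limits the levels of the receptors not detected on all arrays.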
